A study of Mus with 8 samples.

Results

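Type I interferon-stimulated genes are the genes that a cell switches on when it senses interferon alpha or beta. A written list of 34 of them was followed here in mouse monocytes, and all 34 had a row in the table of 17640 Ensembl gene IDs. The list was set by gene identity and not by a measured value. RNA was sequenced from bone marrow monocytes of C57BL/6 mice that were held for 3 days in stiff hydrogels with GM-CSF, IL4 and PGE2 (prostaglandin E2). Control cells carried Vav-iCre alone, a Cre recombinase driven by the Vav promoter of blood-forming cells. Jak2 V617F cells carried the same Cre and the Jak2 V617F allele, a mutation found in myeloproliferative neoplasms. The gels were either viscous (VLVG in the titles) or elastic (NbTz), and the mechanics of a gel and its material cannot be told apart. Each of the 4 groups (control viscous, control elastic, Jak2 V617F viscous, Jak2 V617F elastic) had 2 libraries. Libraries are named here by the number that closes their title, which pairs of a viscous and an elastic library share: W1 (titles ending VLVG_6060 and NbTz_6060) and W2 (VLVG_6064 and NbTz_6064) in control cells, J1 (VLVG_6061 and NbTz_6061) and J2 (VLVG_6065 and NbTz_6065) in Jak2 V617F cells. Whether a number marks a mouse, a culture or a day is not stated, nor are the age of the mice or any pooling, so the spread behind each p-value may be a technical one between libraries.

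As background, interferon alpha and beta bind the receptor pair Ifnar1 and Ifnar2, whose kinases Jak1 and Tyk2 then act. They activate a complex that holds Stat2 and Irf9 and binds the interferon-stimulated response element in the promoters of most of these genes. Macrophages and monocytes hold part of the program on at rest, and the transcription factor Irf7 amplifies it. The list holds 13 antiviral effectors (among them Isg15, Rsad2 and the Ifit genes), 5 genes of the OAS family of double-stranded RNA sensors, 4 other nucleic acid sensors (Ddx58, Ifih1, Dhx58, Zbp1), the transcription factors Irf7 and Irf9, Usp18 and Adar, which restrain the response, and 8 further induced genes. In the RefSeq table of GRCm38.p6, matched by symbol for all 34, several lie side by side. Ifit2 (chromosome 19, 34550550 to 34576534), Ifit3 (34583119 to 34588982) and Ifit1 (34640889 to 34650009) form 1 cluster. Rsad2 (chromosome 12, 26442743 to 26456452) is followed by Cmpk2 (26469117 to 26479837) after 12.7 kb, and Oas2, Oas3 and Oas1a share a stretch of chromosome 5 (120730333 to 120907544). Mx1 is annotated there as a transcribed pseudogene, so its counts stand for a transcript and not for a working protein.

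Libraries held 30632355 to 38408851 counts, and each of the 34 genes had 565 to 34390 counts in every library, so that none was near the detection floor. Levels are CPM, a library's counts of a gene per 1e+06 counts after TMM scaling. Markers of the monocyte and macrophage lineage were present in all 8 libraries, for example Itgam at 1523 to 2302 CPM, while the summed T cell, NK cell and erythroid markers stayed at or below 0.33, 0.28 and 0.58 CPM. Plasmacytoid dendritic cells are strong interferon producers. Of their markers Siglech had 0 to 7 counts per library, Ly6d 0 to 5, Cox6a2 4 to 55 and Ccr9 27 to 241. Both W1 libraries stood apart from the other 6. Their summed monocyte and macrophage markers were 7161 and 9439 CPM against 4044 to 5274, and their platelet list of 2 genes, mostly Pf4, stood at 1606 and 2014 CPM against 464.9 to 868.4. The W1 plasmacytoid list stood at 3.18 and 9.50 CPM against 1.01 to 1.84, of which Ccr9 made 1.36 and 7.78 CPM. Summed dendritic cell (704.2 to 867 against 683 to 931 CPM) and neutrophil lists (93.3 to 104 against 18.8 to 114) overlapped. So did B cell (1.45 to 2.40 against 1.31 to 3.14) and stromal sums (63.4 to 99.7 against 36.1 to 87.2). Single genes did set W1 apart without overlap. Flt3 (92.8 and 60.7 against 11.7 to 28.5 CPM) and Zbtb46 were higher in W1. Itgax (75.6 and 93.2 against 107.7 to 276.5 CPM) and H2-Ab1 were lower. Among neutrophil markers S100a9, Ngp, Ltf and Retnlg were higher and Camp lower in W1. The part of these differences in the results was not tested. In bulk RNA, fewer cells of a type and less RNA per cell cannot be told apart.

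Most of the 34 genes were lowest in the control elastic library W1. The W1 elastic library held the lowest level of 25 of the 34 genes, or 73.5%, where 16.6% of all 14785 IDs tested had their lowest level. No gene of the list was above its own mean there, and 9 were in the viscous library of the same number. By contrast 30 genes were above their own mean in each W2 library, and 27 and 32 in the Jak2 V617F viscous libraries J1 and J2. In Jak2 V617F elastic cells only 3 (J1) and 16 (J2) were. The genes differed much in how far they moved. Rsad2 (viperin, an enzyme that makes a chain-terminating nucleotide) spanned 7.74-fold from its lowest to its highest library, Ifit3 5.78-fold, Ifit2 5.16-fold, Cmpk2 4.59-fold and Ifit1 4.08-fold. Rtp4, Ddx58, Irf9 and Trim30a spanned only 1.32 to 1.35-fold. Neighbours in the Ifit cluster did not all share 1 pattern. In the control viscous libraries Ifit2 was higher in W1 than in W2, whereas Ifit1 and Ifit3 were lower.

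**Figure D1:**
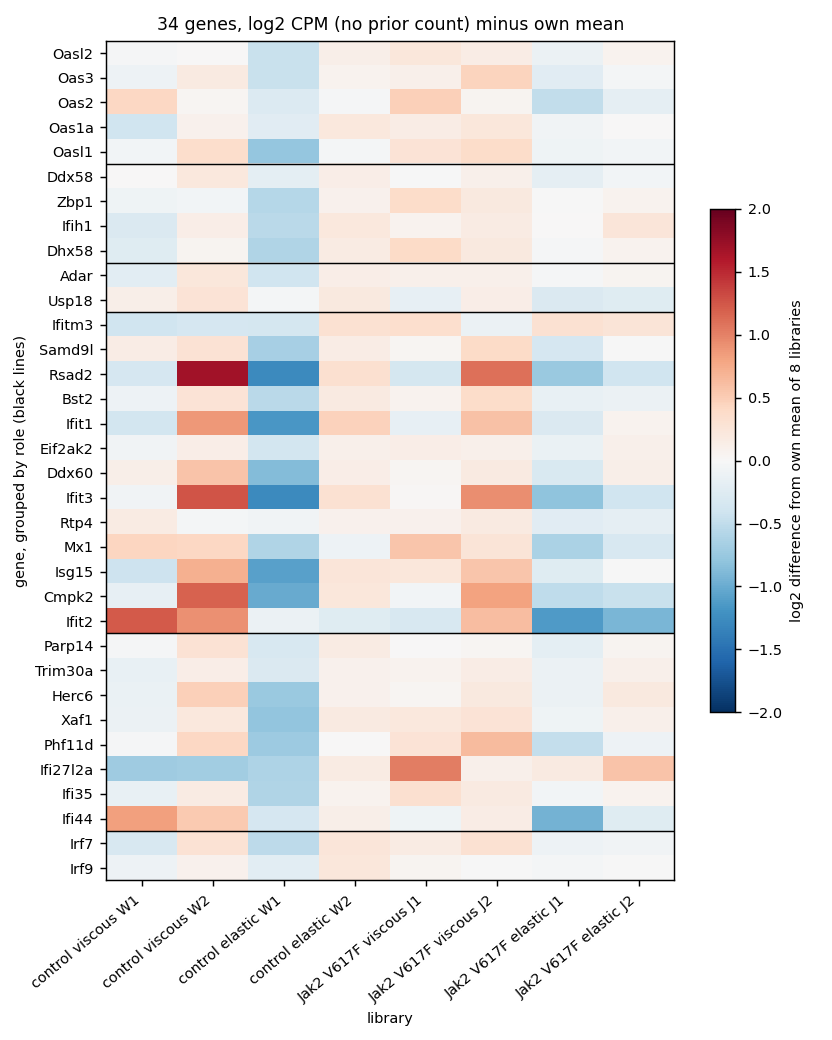
Heat map of the 34 genes (rows, grouped by role with black lines between groups) in the 8 libraries (columns). Colour is log2 CPM minus the gene's own mean over 8 libraries; no cell of the control elastic W1 column is above 0, and Rsad2 in control viscous W2 is the reddest cell.

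Elastic and viscous matrix were compared to ask whether the interferon program differs between the gels. Averaged over genotypes, 32 of the 34 genes had a lower fitted level in elastic matrix, where 51% of all IDs did. The median log2 fold change of the list was −0.25, against −0.0043 over all IDs. The lower levels were largest in Ifit2, Rsad2, Ifit3, Cmpk2 and Mx1, and Ifitm3 and Ifi27l2a were the exceptions. No gene of the list passed the edgeR quasi-likelihood test at an adjusted p under 0.05, as no ID of the whole table did (0% called). At an unadjusted p under 0.05 there were 7 genes, all lower in elastic matrix (20.6%, where 3.38% of all IDs were lower at this level). limma-voom also called 0, and DESeq2 called 2, Ifit2 and Mx1, among 134 of 14785 IDs (0.906%). Without the W1 libraries the median was −0.17, with 30 genes below 0 (52.5% of all IDs were). Without the W2 libraries it was −0.37, with 33 below 0 (50.8% of all IDs). Without the J1 libraries it was −0.23, with 30 below 0 (50.1% of all IDs). Without the J2 libraries it was −0.25, with 33 below 0 (49.2% of all IDs). Single libraries mattered as much: the median was −0.11 without control elastic W1, −0.16 without control viscous W2 and −0.44 without control elastic W2. The number of genes at an unadjusted p under 0.05, in the list and over all IDs, also depended on the libraries used. These fits leave 1 library in a group, so only their effect sizes are given here.

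The 5 genes of the list with the smallest p are given in full. In each sentence the control pairs run W1 then W2 and the Jak2 V617F pairs J1 then J2. Ifit2 (ENSMUSG00000045932), whose protein binds viral RNA, stood at 84.8 and 68.1 CPM in control viscous, 33.3 and 30.5 in control elastic, 28.9 and 55.6 in Jak2 V617F viscous, and 16.5 and 19.3 CPM in Jak2 V617F elastic libraries. Both viscous libraries lay above both elastic ones within each genotype, although the Jak2 V617F viscous library J1 was below both control elastic libraries. Its log2 fold change was −1.25 (SE 0.21), or 2.38-fold lower in elastic matrix (95% interval −1.77 to −0.74), with an edgeR adjusted p of 0.311 and a DESeq2 adjusted p of 9.69e-05. Mx1 (ENSMUSG00000000386), a dynamin-like antiviral GTPase in strains with an intact gene, stood at 126 and 124 CPM in control viscous, 61.3 and 87.5 in control elastic, 137 and 112 in Jak2 V617F viscous, and 60.1 and 74.5 CPM in Jak2 V617F elastic libraries. All 4 viscous libraries were above all 4 elastic ones. The log2 fold change was −0.82 (SE 0.15), 1.76-fold lower, with an adjusted p of 0.336 in edgeR and 0.00105 in DESeq2. Only Mx1 and Oas2 of the 34 genes (5.88%) separated all 4 libraries in this way, where 1.66% of all IDs did, and with Ifit2 and Ifi44 they separated the gels within each genotype (3.92% of all IDs did).

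Ifi44 (ENSMUSG00000028037), an interferon-induced protein, stood at 76.3 and 61.9 CPM in control viscous, 34.3 and 46.9 in control elastic, 40.5 and 48.2 in Jak2 V617F viscous, and 22.5 and 36.5 CPM in Jak2 V617F elastic libraries. Elastic levels were lower within each genotype, and the lowest viscous value overlapped the elastic range of the other genotype. Oas2 (ENSMUSG00000032690), which makes the oligoadenylate messenger that activates RNase L, stood at 289 and 224 CPM in control viscous, 181 and 214 in control elastic, 302 and 226 in Jak2 V617F viscous, and 156 and 193 CPM in Jak2 V617F elastic libraries. Its 4 elastic libraries were below its 4 viscous ones. Phf11d (ENSMUSG00000068245), a zinc-finger gene of a multigene family, stood at 83.9 and 114 CPM in control viscous, 51.1 and 85.6 in control elastic, 103 and 131 in Jak2 V617F viscous, and 61.1 and 78.9 CPM in Jak2 V617F elastic libraries. Here W1 viscous fell within the elastic range. The log2 fold changes were −0.68 (SE 0.19) for Ifi44, −0.49 (SE 0.16) for Oas2 and −0.63 (SE 0.21) for Phf11d, with edgeR adjusted p of 0.609, 0.706 and 0.715. Oasl1 and Ifit3 were the others at an unadjusted p under 0.05, at −0.46 (SE 0.18) and −1.08 (SE 0.45), with edgeR adjusted p of 0.768 and 0.794.

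**Figure D2:**
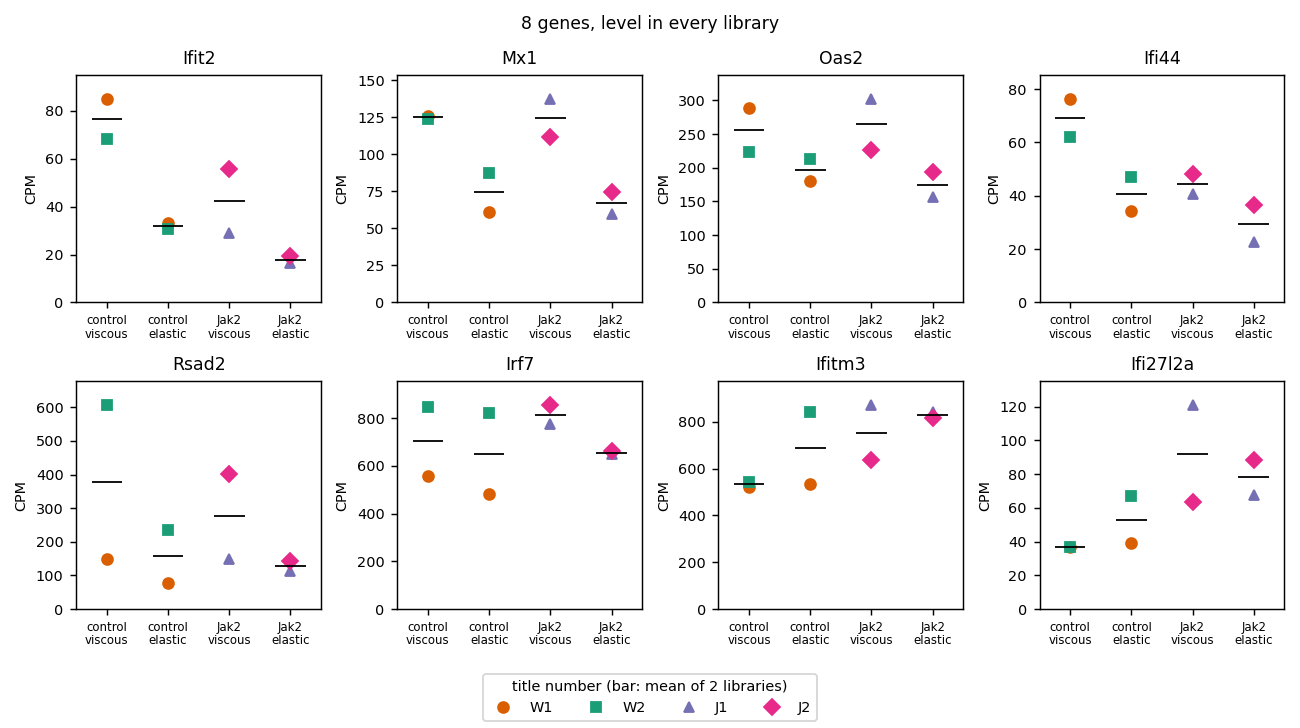
Level of 8 genes of the list in every library (y axis, CPM from 0; x axis, the 4 groups; colour and shape give the title number; the bar is the mean of 2 libraries). Mx1 and Oas2 separate viscous from elastic libraries without overlap, in control cells Irf7 differs more between title numbers than between gels, and Ifitm3 and Ifi27l2a are not lower in elastic matrix in control cells.

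Among the effectors, 12 of 13 had a lower fitted level in elastic matrix, with a median log2 fold change of −0.44. Rsad2, Ifit1, Cmpk2 and Isg15 are described although the rule for named genes did not pick all of them; Rsad2, Ifit1 and Cmpk2 were chosen after their values were seen. Rsad2 stood at 149 and 606 CPM in control viscous, 78.2 and 236 in control elastic, 148 and 403 in Jak2 V617F viscous, and 113 and 143 CPM in Jak2 V617F elastic libraries. It was high in 2 viscous libraries, W2 and J2, and the other viscous libraries lay within the elastic range. Its log2 fold change of −1.18 (SE 0.58) had the widest error of the list, and the edgeR adjusted p was 0.852. Cmpk2, a mitochondrial nucleotide kinase, stood at 38.7 and 98.6 CPM in control viscous, 21.5 and 50.8 in control elastic, 41.6 and 75.5 in Jak2 V617F viscous, and 30.4 and 31.8 CPM in Jak2 V617F elastic libraries. It shared the high W2 and J2 viscous libraries with its neighbour Rsad2. Its log2 fold change was −0.92 (SE 0.40), with an edgeR adjusted p of 0.804.

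Isg15, a ubiquitin-like modifier, stood at 47.7 and 104 CPM in control viscous, 29.9 and 75.6 in control elastic, 74.8 and 93.6 in Jak2 V617F viscous, and 54.1 and 63.2 CPM in Jak2 V617F elastic libraries. Viscous exceeded elastic within every title number, but W1 viscous was lower than 3 of the 4 elastic libraries. Its log2 fold change was −0.52 (SE 0.35) and its edgeR adjusted p 0.914. Ifit1, which binds RNA lacking cap methylation, ranged from 69.9 to 285 CPM, with a log2 fold change of −0.44 (SE 0.43) and an edgeR adjusted p of 0.952. Ifitm3, a membrane protein that blocks viral entry, went the other way. It stood at 521 and 544 CPM in control viscous, 537 and 844 in control elastic, 870.4 and 636 in Jak2 V617F viscous, and 844 and 819 CPM in Jak2 V617F elastic libraries. The W2 elastic library was above the other 3 control libraries, which lay close together. The log2 fold change of Ifitm3 was 0.26 (SE 0.19), with an edgeR adjusted p of 0.919.

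All 5 OAS genes had a lower fitted level in elastic matrix, with log2 fold changes of −0.49 to −0.04. Oasl1, which limits translation of Irf7, stood at 113 and 149.8 CPM in control viscous, 68.8 and 114 in control elastic, 142 and 152 in Jak2 V617F viscous, and 110.5 and 113 CPM in Jak2 V617F elastic libraries. The W1 elastic library was lowest and the W1 viscous library lay within the elastic range. Oasl2 stood at 541 and 555 CPM in control viscous, 405 and 599.6 in control elastic, 646 and 606 in Jak2 V617F viscous, and 509.7 and 574 CPM in Jak2 V617F elastic libraries. Oas3 stood at 329.8 and 402 CPM in control viscous, 261 and 371 in control elastic, 380.2 and 483 in Jak2 V617F viscous, and 302 and 343 CPM in Jak2 V617F elastic libraries. Both were lowest in W1 elastic, and viscous and elastic ranges overlapped in control cells. The 4 other sensors had log2 fold changes of −0.20 to −0.02, smaller than most effectors. Irf7 (ENSMUSG00000025498) stood at 558 and 848 CPM in control viscous, 483 and 821 in control elastic, 777 and 854 in Jak2 V617F viscous, and 649 and 661 CPM in Jak2 V617F elastic libraries. In control cells it differed more between title numbers than between gels, and in Jak2 V617F cells both elastic libraries were below both viscous ones. Its log2 fold change was −0.21 (SE 0.22), with an edgeR adjusted p of 0.953. Irf9, part of the interferon-activated factor itself, ranged from 114 to 154 CPM, with a log2 fold change of −0.01. Among the further genes Parp14, a mono-ADP-ribosyltransferase, stood at 515 and 639 CPM in control viscous, 421 and 585 in control elastic, 528 and 537 in Jak2 V617F viscous, and 459.6 and 545 CPM in Jak2 V617F elastic libraries, with the control elastic library W1 lowest.

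Within each title number most of the 34 genes were lower in elastic matrix. The median elastic-minus-viscous difference of log2 CPM over the 34 genes was −0.45 in W1, −0.09 in W2, −0.34 in J1 and −0.22 in J2, where the median of all IDs lay within 0.0107 of 0 in each. The number of genes lower in elastic matrix was 31, 25, 34 and 29 in that order. All 4 numbers showed a lower level for 23 genes (67.6%, where 10.8% of all IDs did), and 0 genes were higher in all 4 (10.7% of all IDs). For Herc6 the sign in J2 rests on a difference of −9.68e-05 log2 units. The lowest value within each number was that of Ifit2 in W1 (−1.35) and J2 (−1.53), Rsad2 in W2 (−1.36) and Mx1 in J1 (−1.19), and Rsad2 in J2 stood at −1.50. What libraries of 1 number share is not stated, and these counts describe 4 pairs of libraries. Summed monocyte and macrophage markers were 4044 to 7161 CPM in viscous and 4425 to 9439 CPM in elastic libraries. Of the 10 markers summed, Adgre1 (F4/80, a macrophage surface marker) was at 441 to 616 CPM in the 4 viscous and 647 to 937 CPM in the 4 elastic libraries, without overlap, and the other 9 overlapped. The part of these markers in the difference was not tested.

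**Figure D3:**
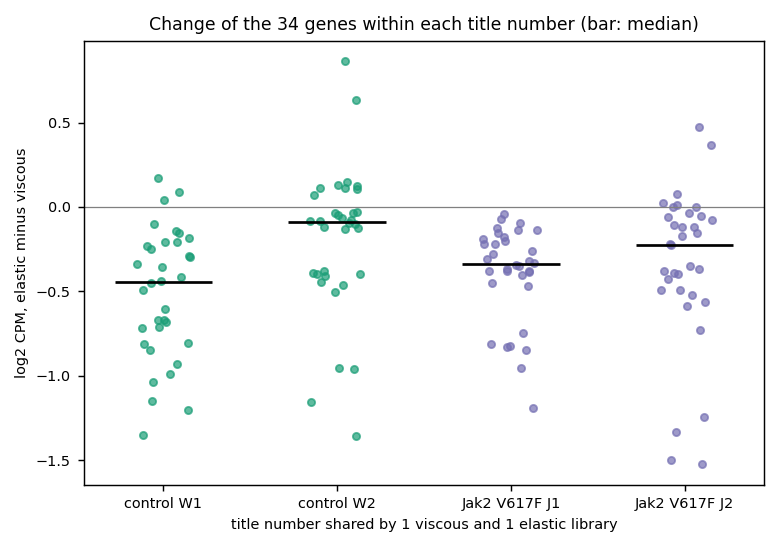
Elastic-minus-viscous difference of log2 CPM (y axis) of each of the 34 genes (points, spread sideways at random) within each title number (x axis); the bar is the median. All 34 points of J1 lie below 0, and the W2 points centre closest to 0, with a median of −0.09.

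In control cells alone, 30 of the 34 genes had a lower fitted level in elastic matrix (49.8% of all IDs), with a median log2 fold change of −0.22. edgeR called 0 genes of the list and 0% of all IDs. At an unadjusted p under 0.05 there were 3 genes, all lower (2.54% of all IDs were lower at this level): Ifit2, Mx1 and Ifi44, at −1.26 (SE 0.30), −0.75 (SE 0.21) and −0.77 (SE 0.27). Each had an edgeR adjusted p of 0.985. limma-voom called 0 genes of the list and DESeq2 0, with 0.237% of all IDs called by DESeq2. Oasl1 at −0.52 (SE 0.25) and Ddx60 at −0.65 (SE 0.34) came next, with the same edgeR adjusted p. Ddx60, a helicase that assists RNA sensing, stood at 112 and 153 CPM in control viscous, 56.2 and 112 in control elastic, 106 and 116 in Jak2 V617F viscous, and 83.2 and 112 CPM in Jak2 V617F elastic libraries. Only 4 genes (Ifit2, Mx1, Oas2 and Ifi44, 11.8%) had both control elastic libraries below both control viscous ones, close to the 13.8% of all IDs. The median depended on which control library was used. Without control viscous W2 it was −0.05, with 22 genes below 0, and without control viscous W1 it was −0.36. Without W1 elastic it was 0.025, with 14 genes below 0 (53.2% of all IDs were). Without W2 elastic it was −0.52, with 32 genes below 0 (51.9% of all IDs). Without both W1 libraries it was −0.09, with 25 genes below 0.

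In Jak2 V617F cells the same direction was seen. Both elastic libraries were below both viscous ones for 25 of the 34 genes (73.5%, where 20.6% of all IDs were). The fitted level was lower for 32 genes (52% of all IDs), with a median log2 fold change of −0.26. edgeR, limma-voom and DESeq2 called 0 genes, where edgeR called 0% and DESeq2 0.237% of all IDs. At an unadjusted p under 0.05 edgeR gave 5 genes, all lower (1.77% of all IDs were): Mx1 at −0.89 (SE 0.21), Ifit2 at −1.24 (SE 0.30), Oas2 at −0.60 (SE 0.22), Rtp4 at −0.34 (SE 0.13) and Phf11d at −0.74 (SE 0.29). All had an edgeR adjusted p of 1. Rtp4, a chaperone of membrane receptors, stood at 110.0 and 95.8 CPM in control viscous, 93.8 and 104 in control elastic, 104 and 111 in Jak2 V617F viscous, and 83.7 and 86.8 CPM in Jak2 V617F elastic libraries. Its elastic Jak2 V617F libraries were the lowest of the 8, while its control groups overlapped. The number of such genes, like the share of all IDs at this level, depended on the libraries left out. The list's median was −0.26 without the W1 libraries, −0.26 without W2, −0.22 without J1 and −0.33 without J2. The fit shares 1 spread over all groups. With 1 library left out the median stayed between −0.34 and −0.21.

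**Figure D4:**
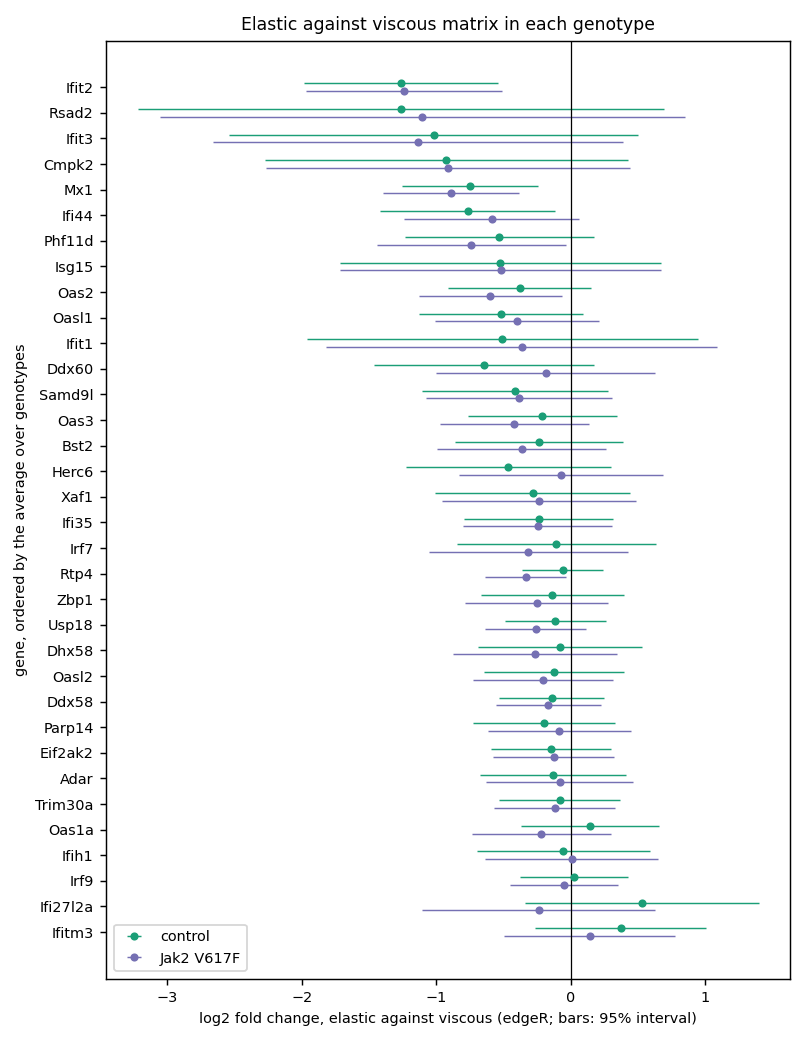
Fitted log2 fold change of elastic against viscous matrix (x axis) for the 34 genes (y axis, ordered by the average over genotypes) in control and Jak2 V617F cells; bars are 95% intervals of the edgeR fit to 8 libraries. Points of both genotypes lie left of 0 for most genes, and only Ifit2 and Mx1 have intervals clear of 0 in both.

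Whether the mutation alters the response to the gel was tested as the difference of the 2 matrix effects, Jak2 V617F minus control. The list centred near 0, with a median of −0.03, as did all IDs (−0.03), and 19 genes were below and 15 above 0 (54.2% of all IDs were below). edgeR, limma-voom and DESeq2 called 0 genes, where edgeR called 0% and DESeq2 0.0135% of all IDs. At an unadjusted p under 0.05 edgeR gave 0 genes of the list, where 0.67% of all IDs were lower and 1.05% higher. The 5 genes with the smallest p were Rtp4 at −0.28 (SE 0.18), Ifi27l2a at −0.77 (SE 0.51), Oas1a at −0.36 (SE 0.30), Ddx60 at 0.46 (SE 0.48) and Herc6 at 0.40 (SE 0.45), all with an edgeR adjusted p of 1. Oas1a stood at 162 and 227 CPM in control viscous, 183 and 247 in control elastic, 235 and 249.6 in Jak2 V617F viscous, and 202 and 215 CPM in Jak2 V617F elastic libraries. In control cells each elastic library was above the viscous library of its number, and in Jak2 V617F cells each was below. Herc6, the mouse ligase for Isg15, stood at 182 and 276 CPM in control viscous, 119 and 212 in control elastic, 204 and 227 in Jak2 V617F viscous, and 184 and 227 CPM in Jak2 V617F elastic libraries. The W1 elastic library was the lowest. The intervals were wide, from −1.09 to 0.37 for Oas1a and from −0.69 to 1.61 for Ddx60, so differences within them were not detectable with 2 libraries a group. The median was 0.26 without control elastic W2 and −0.35 without control elastic W1.

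Jak2 V617F and control cells were then compared within each gel. The medians of the list were near 0 in both. Ifi27l2a had a higher and Ifit2 and Ifi44 a lower fitted level in Jak2 V617F cells in both gels, none at an edgeR adjusted p under 0.05. In viscous matrix 22 genes were above and 12 below 0 (51.2% of all IDs were below), with a median log2 fold change of 0.08. In elastic matrix 21 were above and 13 below (51.6% of all IDs), with a median of 0.03. edgeR, limma-voom and DESeq2 called 0 genes in either gel. Of all IDs, edgeR called 0% in each, and DESeq2 0.413% in viscous and 0.298% in elastic matrix. At an unadjusted p under 0.05 edgeR gave 2 genes in viscous matrix, 1 higher (3.61% of all IDs) and 1 lower (3.71%). In elastic matrix it gave 1, lower (2.51% of all IDs, with 1.91% higher). The same control libraries enter the comparison of gels in control cells, so these values are not independent of those above.

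Ifi27l2a (ENSMUSG00000079017), a small interferon-induced protein, stood at 36.5 and 36.7 CPM in control viscous, 38.9 and 67.0 in control elastic, 121 and 63.7 in Jak2 V617F viscous, and 67.9 and 88.6 CPM in Jak2 V617F elastic libraries. In viscous matrix both Jak2 V617F libraries were above both control libraries, and in elastic matrix J1 exceeded control W2 only narrowly. The log2 fold changes were 1.33 (SE 0.37), or 2.52-fold higher, in viscous and 0.56 (SE 0.36) in elastic matrix, with edgeR adjusted p of 0.664 and 0.937. Ifit2 was lower in Jak2 V617F cells without overlap in both gels, at −0.86 (SE 0.30) in viscous and −0.84 (SE 0.30) in elastic matrix, with edgeR adjusted p of 0.664 and 0.937. Ifi44 was lower without overlap in viscous matrix at −0.64 (SE 0.27), and at −0.46 (SE 0.27) with overlapping libraries in elastic matrix, with edgeR adjusted p of 0.664 and 0.937.

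Zbp1, a sensor of Z-form nucleic acid, stood at 184 and 187 CPM in control viscous, 130.3 and 206 in control elastic, 251 and 221 in Jak2 V617F viscous, and 192 and 204 CPM in Jak2 V617F elastic libraries. Jak2 V617F exceeded control without overlap in viscous matrix and not in elastic matrix, at a viscous log2 fold change of 0.35 (SE 0.22), with an edgeR adjusted p of 0.696. Ifitm3 had a log2 fold change of 0.50 (SE 0.27) there (edgeR adjusted p = 0.665). Usp18, the protease that removes Isg15 and blocks the receptor, stood at 188 and 209 CPM in control viscous, 169.5 and 198 in control elastic, 155 and 190.5 in Jak2 V617F viscous, and 142 and 146 CPM in Jak2 V617F elastic libraries. Its Jak2 V617F elastic libraries were the lowest of the 8, at −0.35 (SE 0.16) against control elastic, and Rtp4 stood at −0.21 (SE 0.13) (edgeR adjusted p = 0.937 for both). In viscous matrix 8 genes (23.5%) had both Jak2 V617F libraries above both control ones, where 18.6% of all IDs did, and 2 (5.88%) had them below (19.4%). In elastic matrix the counts were 1 above (2.94%, 17.2% of all IDs) and 3 below (8.82%, 18.9%). These shares are near or under the background.

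Counts of the viscous and elastic library of each number were also summed, giving 2 control and 2 Jak2 V617F sums. Ifi27l2a again led, at 0.95 (SE 0.23), followed by Ifi44 at −0.57 (SE 0.17), Ifit2 at −0.83 (SE 0.28), Zbp1 at 0.30 (SE 0.16) and Usp18 at −0.26 (SE 0.14). Their edgeR adjusted p-values were 0.792 for the first 4 and 0.795 for Usp18. edgeR, limma-voom and DESeq2 called 0 genes, where edgeR called 0% and DESeq2 0.696% of 15239 IDs. By edgeR 3 genes were at an unadjusted p under 0.05, 1 higher (2.47% of all IDs) and 2 lower (2.75%). The list's median was 0.10, with 14 genes below 0 (50.8% of all IDs), and no gene had all 4 Jak2 V617F libraries above (3.5% of all IDs) or below (3.39%) all 4 control ones.

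The genotype comparison depended on which control number was used. With W2 left out, so that W1 alone stood for control cells, the list's median was 0.46 in elastic and 0.36 in viscous matrix. In viscous matrix edgeR then called 0 genes of the list, where 2.44% of all IDs were called higher. In elastic matrix edgeR called 3 genes higher (Isg15, Oasl1 and Xaf1; 8.82% of the list, where 3.48% of all IDs were called higher). On the summed counts it called 8 higher (23.5%, where 7.98% were): Isg15, Oasl1, Xaf1, Zbp1, Ifih1, Dhx58, Ifi35 and Ifi27l2a. With W1 left out the median was −0.25 in elastic and −0.03 in viscous matrix, 33 of 34 genes were below 0 in elastic matrix, and edgeR called 0. Each of these fits leaves 1 control library a gel or 1 control sum, which is assumed to vary like the Jak2 V617F libraries.

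**Figure D5:**
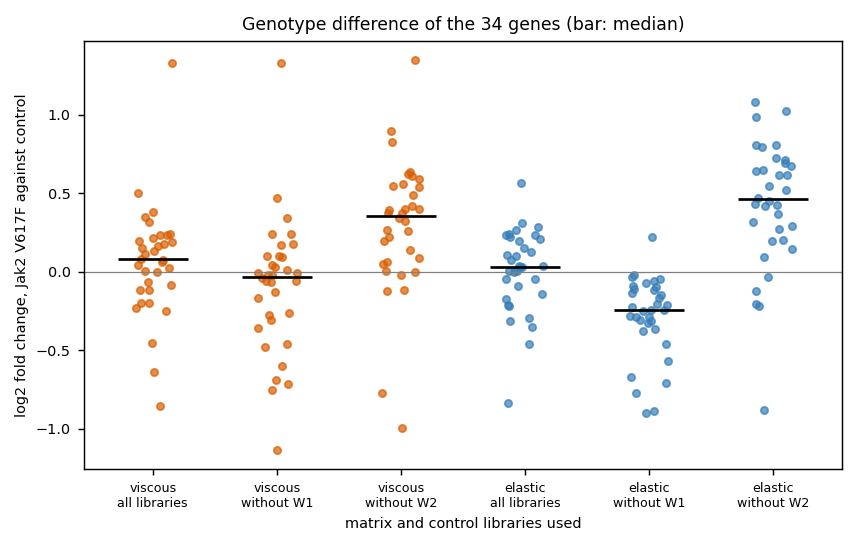
Fitted log2 fold change of Jak2 V617F against control (y axis) of the 34 genes (points, spread sideways at random; bar, median) in viscous and elastic matrix, with all libraries and without the W1 or the W2 control libraries (x axis). In elastic matrix the median moves from 0.03 to −0.25 without W1 and to 0.46 without W2.

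The libraries of 1 genotype also differed by title number. The W1 library was below the W2 library in both gels for 29 of 34 genes (85.3%, where 35.7% of all IDs were). The median difference of log2 CPM, W1 minus W2, was −0.30 in viscous and −0.67 in elastic matrix. The extremes were Rsad2 at −2.02 in viscous and Ifit1 at −1.63 in elastic matrix, and Oas2 (0.37, viscous) and Ifit2 (0.12, elastic) were the highest. In Jak2 V617F cells J1 was below J2 in both gels for 23 genes (67.6%, where 21.5% of all IDs were), with medians of −0.09 in viscous and −0.20 in elastic matrix. Rsad2 again had the lowest value, −1.45 in viscous matrix, and Ifi27l2a the highest, 0.92. Lyz2, a macrophage lysozyme, stood at 2986 and 4439.8 CPM in the W1 libraries against 401 to 1033 CPM in the other 6, and its part in the difference was not tested.

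The signalling side of the pathway was read from a second list of 24 genes (receptors, kinases, transcription factors, sensors' adaptors and feedback genes), of which 23 were tested in each gel comparison. By edgeR 0 of the 23 passed, and 2, Stat2 and Tlr9, were at an unadjusted p under 0.05 in all 3 matrix comparisons, both lower in elastic matrix. Of all IDs 3.38%, 2.54% and 1.77% were lower at this level over both genotypes, in control and in Jak2 V617F cells. Stat2, chosen for its values, is given in full. Stat2 (ENSMUSG00000040033) stood at 586 and 651 CPM in control viscous, 369 and 493 in control elastic, 502 and 555 in Jak2 V617F viscous, and 341 and 399 CPM in Jak2 V617F elastic libraries. All 4 elastic libraries were below all 4 viscous ones. Its log2 fold change was −0.52 (SE 0.14) over both genotypes, −0.52 (SE 0.20) in control and −0.51 (SE 0.20) in Jak2 V617F cells, with edgeR adjusted p of 0.577, 0.985 and 1. The receptor genes and kinases had log2 fold changes of −0.01 (SE 0.15) for Ifnar1, 0.07 (SE 0.16) for Ifnar2, 0.05 (SE 0.11) for Jak1 and −0.21 (SE 0.17) for Tyk2. Ifnb1, the gene of interferon beta, had 1 to 11 counts in a library and did not pass the filter of the fit to 8 libraries. On summed counts it did, with a log2 fold change of −0.66 (SE 0.82) and an edgeR adjusted p of 0.863. The median of the 23 was −0.07 over both genotypes, with 16 below 0 (51% of all IDs were). In the genotype comparisons edgeR also called 0, with 2 genes at an unadjusted p under 0.05 in viscous matrix (Irf1 lower, Socs1 higher) and 3 in elastic matrix (Irf1 and Tlr7 lower, Tlr9 higher). At this level 3.71% of all IDs were lower and 3.61% higher in viscous, and 2.51% lower and 1.91% higher in elastic matrix.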

How the data were processed

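RNA of 8 libraries was analysed. The authors deposited whole-number counts with unequal totals for Ensembl gene IDs, which were taken as not normalized. The submitters' processing notes name Salmon, DESeq2 and GRCm38. Versions, filters and strand are not given in the sources used here. Salmon splits shared reads by estimation, so Oas1a, Ifit1, Ifit3, Ifitm3, Trim30a and Phf11d, which have close paralogs, are uncertain. The 8 per-library files and the series table were identical.

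Groups came from titles. edgeR 4.0.16 (R 4.3.3) fitted 4 group means to 8 libraries after filterByExpr (14785 of 17640 IDs, all 34 genes) with TMM scaling; for genotype over both gels, counts were summed per title number. Two-sided p-values were adjusted by Benjamini-Hochberg over all IDs tested, with a threshold of 0.05. SE and 95% intervals derive from the test statistic. CPM are per 1e+06 scaled counts; differences of log2 CPM used a prior count of 2. Scripts were tested on simulated data.

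The files pair no IDs with names. Symbols of the 34 genes came with the list, those of 73 other genes (11 lists, 66 IDs with a row) from general knowledge, unchecked by ID because the RefSeq table holds 0 Ensembl IDs. Genes, lists and tests were chosen with earlier results of these data known. Counts within title numbers and of groups without overlap were chosen after the data were seen. Values in every library were planned for the 5 smallest p per comparison, Isg15, Irf7 and the 5 highest mean CPM. Alternatives were other scalings, filters and tools (DESeq2 1.42.0, limma-voom 3.58.1), libraries left out, title number as a block, and only the libraries compared. Promoter motifs were not analysed here, and 1 gene counted in the signalling list is not reported here by name or value. Figures used matplotlib 3.10.9 in Python 3.11.15.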

Additional observations from a re-analysis of the deposited data

How the results depend on the processing

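Over 132 alternative counts of listed genes called, 129 stayed at 0. The others were 2 under DESeq2 for matrix over both genotypes, and the fits without replicate W2 for genotype in elastic matrix and on summed counts. Those fits leave 1 control library or 1 control sum, so their counts are not given. The yardstick for the median was 0.28, the pooled SD of the list's median between replicates. It holds the W1 to W2 gap, so the control matrix median's move from −0.22 to 0.025 without control elastic W1 falls under it. Some alternatives also left out only libraries outside the comparison. The median log2 fold change moved by more than this SD in 8 of 132 alternatives, all with control libraries left out. Its range over left-out libraries was −0.44 to −0.11 for matrix over both genotypes, −0.52 to 0.025 for matrix in control cells, −0.35 to 0.26 for the difference of matrix effects, −0.25 to 0.46 for genotype in elastic matrix and −0.11 to 0.40 for summed counts. Of 902 values of single genes, 4 changed sign, all of Ifi27l2a for matrix over both genotypes (−0.14 to 0.51 with libraries left out). By DESeq2, Ifit2 and Mx1 passed the threshold that the first fit missed. Fits that leave 1 control library or 1 control sum are read by effect size only. Other scalings moved the median of all IDs by at most 0.022.

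Deviations of same-numbered libraries from their group means had a correlation of 0.53 (control cells) and −0.089 (Jak2 V617F). A random replicate block in limma-voom had a consensus correlation of 0.38. The first fit did not take the number as a pairing, so shifts by number, described above for both genotypes, stay in its error. With it as a fixed replicate block edgeR called 0 listed genes in all 4 matrix contrasts. At an unadjusted edgeR p under 0.05, listed genes went from 7 to 17 over both genotypes. They went from 3 to 13 in control and from 5 to 12 in Jak2 V617F cells, all lower in elastic matrix. The share of all IDs at this level, in either direction, rose too. In that order it went from 6.28% to 11.9%, from 4.85% to 9.45% and from 3.08% to 7.01%. The lowest edgeR adjusted p of a listed gene was 0.0803. The random block also called 0. The fixed block has no value for the genotype comparisons, since no number is shared between genotypes. The depth is high (at least 565 counts for a listed gene), and Ifit2, 2.38-fold lower in elastic matrix, still missed the edgeR threshold.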
